A study of Mus musculus with 6 samples.

Results

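The transcription factors described are 10 genes that build and maintain heart muscle, taken by name: Gata4, Gata6, Nkx2-5, Tbx5, Tbx20, Hand2, Irx4, Prox1, Srf and Myocd. All 10 were found among the 48005 gene identifiers of the deposited count table, and all 10 were tested. RNA sequencing was run on 6 mouse hearts of the C57BL/6 strain. In 3 hearts, labelled conditional knock-in, the PPXY motifs of Txnip were mutated to AAXA, and the 3 others were labelled wild-type with a Txnip flox allele. Txnip encodes an alpha-arrestin that restrains glucose uptake and binds thioredoxin, and PPXY motifs are docking sites for WW domains of ubiquitin ligases. Both groups carried MerCreMer, a Cre recombinase held inactive by mutated estrogen receptor domains, and both received 4-hydroxytamoxifen, its activating ligand. The promoter driving MerCreMer, the ages and the sexes are not named in the labels. The control hearts were used in a second series as well, and no label gives a batch, so a batch effect and the genotype cannot be told apart.

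These factors sit at the top of the cardiac gene programme. GATA factors (Gata4, Gata6), the homeodomain protein Nkx2-5 and T-box factors (Tbx5, Tbx20) bind one another and switch on genes for contraction, conduction and natriuretic peptides. Hand2 is a basic helix-loop-helix factor needed for the right ventricle, Irx4 is an Iroquois homeobox factor of ventricular muscle, and Prox1 is a homeobox factor of heart muscle that is best known for specifying lymphatic endothelium. Srf is a MADS-box factor that binds CArG boxes, and Myocd is its muscle coactivator. Srf bound to Myocd or a myocardin-related factor drives actin and contractile genes, whereas Srf bound to ternary complex factors drives immediate early genes.

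Promoter sequences show which of these factors carry binding letters of the others near their start. RefSeq tables of GRCm38.p6 held promoters for 6 of the 10 genes, and motifs were searched from 250 bases before to 50 bases after each annotated start. Those of Srf (chr17:46556163-46556412, reverse strand), Hand2 (chr8:57320733-57320982, forward strand) and Nkx2-5 (chr17:26841566-26841815, reverse strand) are printed 5′ to 3′ up to the start. Srf and Hand2 were chosen among those that hold letters marked here, and Nkx2-5 because its transcript passed the test and its promoter holds none of those marked. Prox1, not printed, also holds CACTTG, 215 bases before 1 of its starts. Capitals mark CArG boxes, the GATA letters AGATAA or TGATAA and the NK2 letters CACTTG or CACTTA, searched on both strands; a CACTTG is also a match to the E-box letters CANNTG.
Srf: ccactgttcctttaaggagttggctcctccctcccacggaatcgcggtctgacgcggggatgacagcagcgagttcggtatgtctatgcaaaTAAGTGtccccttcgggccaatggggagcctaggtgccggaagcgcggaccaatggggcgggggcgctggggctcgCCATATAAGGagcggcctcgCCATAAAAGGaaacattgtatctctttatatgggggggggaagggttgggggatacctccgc
Hand2: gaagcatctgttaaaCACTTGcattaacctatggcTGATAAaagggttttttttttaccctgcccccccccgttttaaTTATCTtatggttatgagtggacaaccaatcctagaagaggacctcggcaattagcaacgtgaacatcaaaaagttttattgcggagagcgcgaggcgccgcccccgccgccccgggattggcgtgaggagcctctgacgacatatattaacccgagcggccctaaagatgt
Nkx2-5: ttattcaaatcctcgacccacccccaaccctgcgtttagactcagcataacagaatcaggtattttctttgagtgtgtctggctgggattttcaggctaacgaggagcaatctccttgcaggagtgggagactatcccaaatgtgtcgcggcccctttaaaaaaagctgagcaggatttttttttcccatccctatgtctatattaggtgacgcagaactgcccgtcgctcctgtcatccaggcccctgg
The Srf promoter held 2 CArG boxes, beginning 82 and 62 bases before the start, and 1.64% of 32544 promoters of the same length held at least 1. The Hand2 promoter held AGATAA on the reverse strand 172 bases before its start, letters found in 11.2% of promoters, and TGATAA 215 bases before it, found in 8.91%. Of the NK2 letters, Hand2 held CACTTG 235 bases before its start, found in 13.5% of promoters. Srf held CACTTA on the reverse strand 158 bases before its start, found in 9.01%. The Nkx2-5 promoter held 1 E-box match, CANNTG, 113 bases before its start, letters of basic helix-loop-helix factors found in 72.3% of promoters. The T-box letters GGTGTG occurred in none of the 7 promoters held for these genes, which include a second Prox1 start, and in 19.0% of all promoters. A match is a stretch of letters and says nothing of binding in these hearts.

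The libraries held 31989883 to 34016586 counts in knock-in hearts and 30329004 to 30625093 in wild-type hearts, as counts per exon bin summed over bins. Ventricular muscle genes were abundant in all 6 hearts, and the 8 cardiomyocyte markers measured summed to 92415 to 97189 CPM in knock-in and 80501 to 86850 CPM in wild-type hearts. CPM is a count scaled by its library's TMM-adjusted total. None of the 8 passed an adjusted p of 0.05 in edgeR's test, where 10.8% of all genes did. Myh6 alone averaged 27538 CPM in knock-in and 20951 CPM in wild-type hearts. Of 7 atrial markers, Myl7, Sln and Bmp10 stayed under 1 CPM in every heart, Gja5, Nr2f2 and Myl4 lay between 2.09 and 4.66 CPM, and Nppa stood at 50.1 to 91.0 CPM in knock-in and 79.9 to 188 CPM in wild-type hearts. Txnip stood at 363, 751 and 670 CPM in knock-in hearts, against 887, 939 and 886 CPM in wild-type hearts (edgeR quasi-likelihood test, adjusted p = 0.0698), and mutant transcripts were not counted apart. Coverage along transcripts differed between the groups with no overlap: over 1748 long genes, the median log2 ratio of counts in the 3′ of 3 equal parts to those in the 5′ part was -0.05, -0.17 and -0.10 in knock-in hearts and 0.77, 0.54 and 0.37 in wild-type hearts. Wild-type replicate 3 lay nearest to the knock-in hearts in this ratio. Each bin was placed whole in a part by its middle, so the parts held unequal lengths. The 3′ part of Tbx20 was its last bin alone, 7655 of 11997 bases, and that of Prox1 its last bin, 4418 of 8390 bases.

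All 10 factors were expressed in these hearts, with 314 to 2222 counts each per library. Levels between genes are set on CPM per kilobase of exon. In knock-in hearts Srf reached 14.7 ± 1.20 CPM per kilobase, Gata4 13.2 ± 0.345, Hand2 10.2 ± 2.68, Gata6 8.52 ± 0.857 and Nkx2-5 8.51 ± 1.77 (SD, n = 3 each). In wild-type hearts Srf reached 14.5 ± 0.110 CPM per kilobase, Gata4 13.4 ± 1.66, Nkx2-5 13.2 ± 1.76, Gata6 7.49 ± 0.659 and Hand2 7.31 ± 1.66 (SD, n = 3 each). Srf, Gata4 and Nkx2-5 thus formed the upper group in wild-type hearts, above 81.4% to 82.7% of the 13066 tested genes per kilobase. Lower in the order came Irx4, at 4.25 ± 0.994 CPM per kilobase in knock-in and 6.28 ± 0.532 in wild-type hearts (SD, n = 3 each). Tbx20, Myocd, Prox1 and Tbx5 had means of 2.63 to 4.54 CPM per kilobase in knock-in hearts, on both sides of Irx4, and of 2.38 to 2.95 in wild-type hearts, where they were the lowest of the 10 and near the middle of all tested genes.

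Neighbours in the wild-type order seldom stood apart. In wild-type hearts the ranges over hearts separated in only 2 places, between Nkx2-5 and Gata6 and between Irx4 and Tbx20. Within Srf, Gata4 and Nkx2-5, within Gata6, Hand2 and Irx4, and within Tbx20, Myocd, Prox1 and Tbx5, each gene overlapped the next. The per-kilobase value divides by all annotated exons, used or not. Scored by its densest bin of at least 100 bases instead, Srf was again first in wild-type hearts, at 46.6 ± 4.75 CPM per kilobase, and Gata6 passed Nkx2-5 at 25.5 ± 6.41 against 13.4 ± 1.76 (SD, n = 3 each). These bins held 120 bases for Srf, 104 for Gata6 and 984 for Nkx2-5. Reads spanning bins were counted in each, which raises the value per kilobase of short bins. The part of bin length in this order was not tested.

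Of the 10 factors, 2 rose in knock-in hearts (Myocd and Tbx5), 1 fell (Nkx2-5), and 7 did not pass an adjusted p of 0.05 in edgeR's quasi-likelihood test over all 13066 genes. Over all tested genes 10.8% were called, 6.74% higher and 4.09% lower in knock-in hearts. With library totals for scaling the split over all genes turned to 552 higher and 700 lower, against 881 higher and 534 lower with TMM, and with upper-quartile scaling to 594 higher and 734 lower. The median log2 difference was 0.16 over the 10 factors and -0.004 over all tested genes. Values of the groups did not overlap for 4 factors, Nkx2-5, Tbx5, Irx4 and Myocd, where 30.7% of all genes did not overlap. In bulk tissue, fewer cells of a type and less RNA per cell cannot be told apart.

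**Figure D1:**
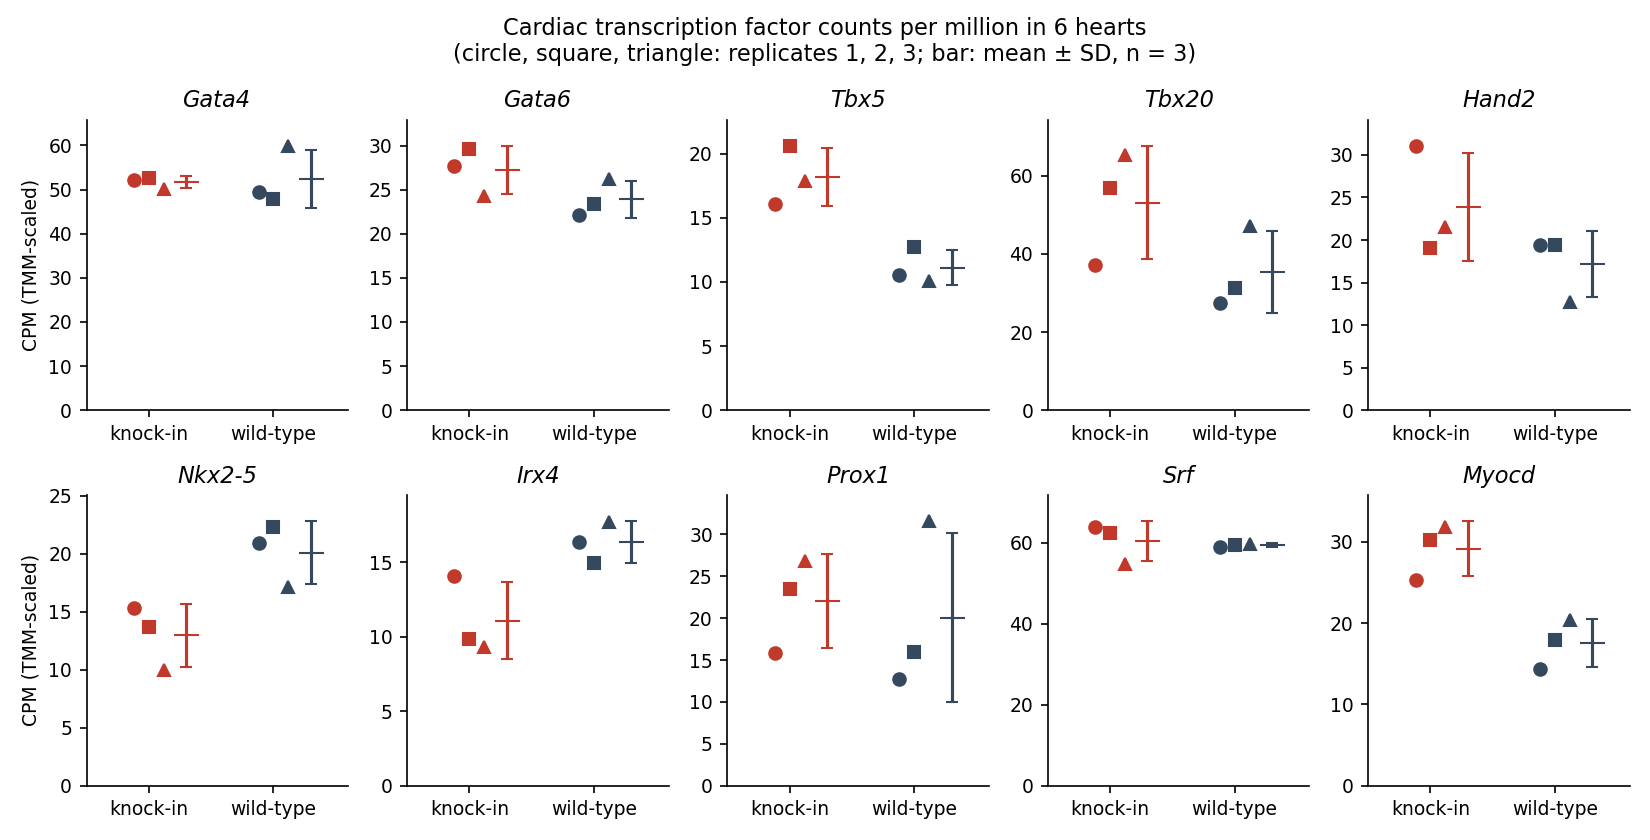
CPM (TMM-scaled) of the 10 factors in 3 knock-in hearts (red, left) and 3 wild-type hearts (blue, right), each on its own axis from 0; points are hearts, and bars are mean ± SD. Tbx5 and Myocd lie higher in all 3 knock-in hearts, Nkx2-5 and Irx4 lie lower, and the other 6 overlap.

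Myocd (ENSMUSG00000020542, GRCm38 chr11:65176561-65269989, reverse strand) had 25.4, 30.2 and 31.9 CPM in knock-in hearts, against 14.4, 17.98 and 20.4 CPM in wild-type hearts. Every knock-in heart lay above every wild-type heart. Myocd averaged 29.1 ± 3.38 CPM in knock-in and 17.6 ± 2.99 CPM in wild-type hearts (SD, n = 3 each). The log2 difference was 0.73 ± 0.16 (SE; edgeR adjusted p = 0.0155), or 1.66-fold. The call was lost on leaving out knock-in replicate 2 or 3 or wild-type replicate 1 or 2, with edgeR adjusted p of 0.0828, 0.0592, 0.0815 and 0.0709. Srf, the factor that Myocd activates, had 63.9, 62.4 and 54.8 CPM in knock-in hearts, against 58.9, 59.4 and 59.8 CPM in wild-type hearts. Its log2 difference was 0.02 ± 0.11 (95% interval -0.21 to 0.26; edgeR adjusted p = 0.913), and its sign turned under library totals and upper-quartile scaling, both at -0.05.

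Both T-box factors had higher mean counts in knock-in hearts, but only Tbx5 passed. Tbx5 (ENSMUSG00000018263, chr5:119832668-119885219, forward strand), whose human gene is mutated in a heart and hand syndrome, had 16.1, 20.6 and 17.9 CPM in knock-in hearts, against 10.6, 12.7 and 10.1 CPM in wild-type hearts. The groups did not overlap, and the log2 difference was 0.71 ± 0.16 (SE; edgeR adjusted p = 0.0177), or 1.63-fold. The call was lost without knock-in replicate 2 or 3 or wild-type replicate 1, with edgeR adjusted p of 0.105, 0.0523 and 0.0951. Tbx20 (ENSMUSG00000031965, chr9:24718138-24774303, reverse strand), a T-box factor that can also repress, had 37.1, 56.9 and 65.3 CPM in knock-in hearts, against 27.5, 31.4 and 47.2 CPM in wild-type hearts. Wild-type replicate 3 reached into the knock-in range, and the log2 difference of 0.59 ± 0.22 did not pass (edgeR adjusted p = 0.102). Without wild-type replicate 3 it was 0.85 (edgeR adjusted p = 0.0101), and without knock-in replicate 1 it was 0.77 (edgeR adjusted p = 0.0189).

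Neither GATA factor passed. Gata4 (ENSMUSG00000021944, chr14:63198922-63271692, reverse strand), a zinc-finger factor central to heart formation and muscle growth, had 52.3, 52.6 and 50.1 CPM in knock-in hearts, against 49.5, 47.9 and 59.9 CPM in wild-type hearts. All 3 knock-in values fell inside the wild-type range, and the log2 difference was -0.02 ± 0.12 (95% interval -0.28 to 0.24; edgeR adjusted p = 0.929). Gata6 (ENSMUSG00000005836, chr18:11052510-11085635, forward strand), its close relative, had 27.7, 29.7 and 24.3 CPM in knock-in hearts, against 22.1, 23.4 and 26.2 CPM in wild-type hearts. The groups overlapped, with a log2 difference of 0.19 ± 0.13 (95% interval -0.10 to 0.47; edgeR adjusted p = 0.393).

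Nkx2-5 and Irx4, both homeobox factors, were lower in every knock-in heart. Nkx2-5 (ENSMUSG00000015579, chr17:26838664-26841565, reverse strand) had 15.3, 13.7 and 9.997 CPM in knock-in hearts, against 20.9, 22.3 and 17.1 CPM in wild-type hearts. It averaged 13.0 ± 2.70 CPM in knock-in and 20.1 ± 2.68 CPM in wild-type hearts (SD, n = 3 each), a log2 difference of -0.63 ± 0.18 (edgeR adjusted p = 0.039). The call was lost without any of 4 hearts (knock-in replicates 2 and 3, wild-type replicates 1 and 2), with edgeR adjusted p of 0.123 to 0.158, and under offsets for length and GC content its sign turned. Irx4 (ENSMUSG00000021604, chr13:73260479-73269608, forward strand) had 14.1, 9.86 and 9.35 CPM in knock-in hearts, against 16.4, 15.0 and 17.7 CPM in wild-type hearts. Knock-in replicate 1 came close to the lowest wild-type heart, and the log2 difference of -0.56 ± 0.18 missed the threshold (edgeR adjusted p = 0.0587). Without that heart it was -0.78 (edgeR adjusted p = 0.00604), and with library totals or upper-quartile scaling it was -0.63 (edgeR adjusted p = 0.0392 and 0.0411). Irx4 passed in 9 of 20 alternatives, Nkx2-5 in 12 of 20, Tbx5 in 13 of 19 and Myocd in 13 of 20.

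Hand2 and Prox1 spread widely within the groups. Hand2 (ENSMUSG00000038193, chr8:57320983-57324633, forward strand) had 31.0, 19.1 and 21.5 CPM in knock-in hearts, against 19.4, 19.5 and 12.7 CPM in wild-type hearts. Knock-in replicate 1 was high and wild-type replicate 3 low while the other 4 hearts lay close together, and the log2 difference of 0.47 ± 0.21 did not pass (edgeR adjusted p = 0.154). Without knock-in replicate 1 it was 0.23 (edgeR adjusted p = 0.431). Prox1 (ENSMUSG00000010175, chr1:190118035-190170714, reverse strand) had 15.9, 23.5 and 26.8 CPM in knock-in hearts, against 12.7, 15.9 and 31.5 CPM in wild-type hearts. Wild-type replicate 3 was the highest of all 6 hearts, and the log2 difference was 0.14 ± 0.31 (95% interval -0.54 to 0.82; edgeR adjusted p = 0.808). Leaving that heart out gave 0.63 (edgeR adjusted p = 0.0486).

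The exon bins, the pieces of exon counted one by one, showed that several of these differences were not even along the transcript. Ratios per bin are log2 of mean CPM with 0.1 CPM added, for bins with at least 60 counts over the 6 hearts, and carry no test. UTR stands for untranslated region. In Tbx20 the 9 measured bins ahead of the last, in the 5′ UTR and coding exons, had log2 ratios of 1.27 to 1.65, each without overlap between the groups. The last bin, 7655 bases that hold the end of the coding sequence and the 3′ UTR, had a ratio of 0.21. It held most of the gene's counts, with 739, 1042 and 1459 counts in knock-in and 729, 769 and 1167 in wild-type hearts, against 61, 110 and 129 knock-in and 14, 37 and 41 wild-type counts in the first coding bin. Counted over bins whose middle lies in the 5′ of 3 equal parts of the exonic length, Tbx20 had a log2 difference of 1.33 ± 0.29 (edgeR adjusted p = 0.0101, beside 15.1% of genes called there). Tested over 3′-most bins, with the libraries rescaled to the totals and TMM factors of those bins, the same last bin had a log2 difference of 0.41 ± 0.23 (edgeR adjusted p = 0.384, beside 5.43% called). Values over the 5′ part and the 3′-most bin are on scales of their own and are not set against the ratios per bin.

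Prox1 ran the same way. Its log2 ratio was 1.59 in a 413-base 5′ UTR bin and 1.20 in the 1792-base bin that opens the coding sequence, 0.67 and 0.73 in the next coding bins, and -0.28 in the 4418-base 3′ UTR bin. The 413-base bin held only 78 counts over all hearts. In the 1792-base bin the counts were 94, 185 and 143 in knock-in hearts, against 15, 53 and 102 in wild-type hearts, so wild-type replicate 3 overlapped the knock-in hearts there too. The log2 ratio of 3′ to 5′ counts was 0.71, 0.29 and 1.16 in knock-in hearts, against 2.95, 1.85 and 2.02 in wild-type hearts, for Prox1. For Tbx20 it was 1.11, 0.52 and 1.13 in knock-in hearts, against 2.61, 1.94 and 2.10 in wild-type hearts. Both differences had an exact permutation p of 0.1 (two-sided, n = 3 each), the smallest that 3 against 3 can give. Prox1 fell short of the counts per library planned for this test, with 487 in knock-in replicate 1 and 395 and 497 in wild-type replicates 1 and 2. Of the 1748 long genes, 5.61% had a lower difference than Tbx20 and 2.35% a lower one than Prox1, which had too few counts to be one of them, while the median difference over those genes was -0.67. The part of that general shift in these 2 profiles was not tested.

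Tbx5 and Myocd were higher along their whole length. All 10 Tbx5 bins had ratios above 0, at 1.44 in a 615-base 5′ UTR bin, 0.63 to 0.89 in the coding bins, and 0.29 in the 2307-base last bin. The 615-base bin held only 63 counts over the 6 hearts. All 19 Myocd bins had ratios above 0, between 0.29 and 1.24, with 0.98 to 1.05 in the first 3 bins and 0.29 to 0.51 in the last 3. In the 5′ part of the exonic length the log2 difference was 0.68 ± 0.18 for Myocd (edgeR adjusted p = 0.0268) and 0.86 ± 0.30 for Tbx5 (edgeR adjusted p = 0.0676). In the 3′-most bin it was 0.58 ± 0.36 for Myocd (edgeR adjusted p = 0.391) and 0.51 ± 0.16 for Tbx5 (edgeR adjusted p = 0.0787). The Myocd bin held only 199 bases and 73 counts over the 6 hearts, against 2307 bases and 919 counts for Tbx5. Both genes thus had higher means at both ends, but of these 4 values only that of Myocd at the 5′ end passed. The group difference in the log2 ratio of 3′ to 5′ counts was -0.58 for Tbx5, without overlap, and -0.40 for Myocd, with overlap. The median over long genes was -0.67, and the part of that general shift in these profiles was not tested either. Nkx2-5, a gene of 2 exons, was lower in both, at -0.62 and -0.63, and Irx4 was lower in all 5 of its measured bins, between -0.72 and -0.07.

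Bins of each GATA gene differed in sign. Of 11 Gata4 bins 6 had ratios under 0, among them the first at -0.28 and the 1628-base last bin, which held most of the counts, at -0.17. In Gata4 a 566-base coding bin with 73.7% GC had 62, 52 and 55 counts in knock-in hearts, against 96, 85 and 118 in wild-type hearts. That is a log2 ratio of -0.84 without overlap, the lowest of the gene, while the bins of its last 2 internal coding exons stood at 0.35 and 0.45. In Gata6 the 1154-base bin that opens the coding sequence, with 73.0% GC, had 91, 64 and 43 counts in knock-in hearts, against 85, 100 and 80 in wild-type hearts, a ratio of -0.44 with the groups overlapping, where its next 4 coding bins ran from 0.30 to 0.52. In Srf the first bin, with 75.6% GC, had a ratio of -0.13 and the next, with 58.4% GC, one of 0.37.

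**Figure D2:**
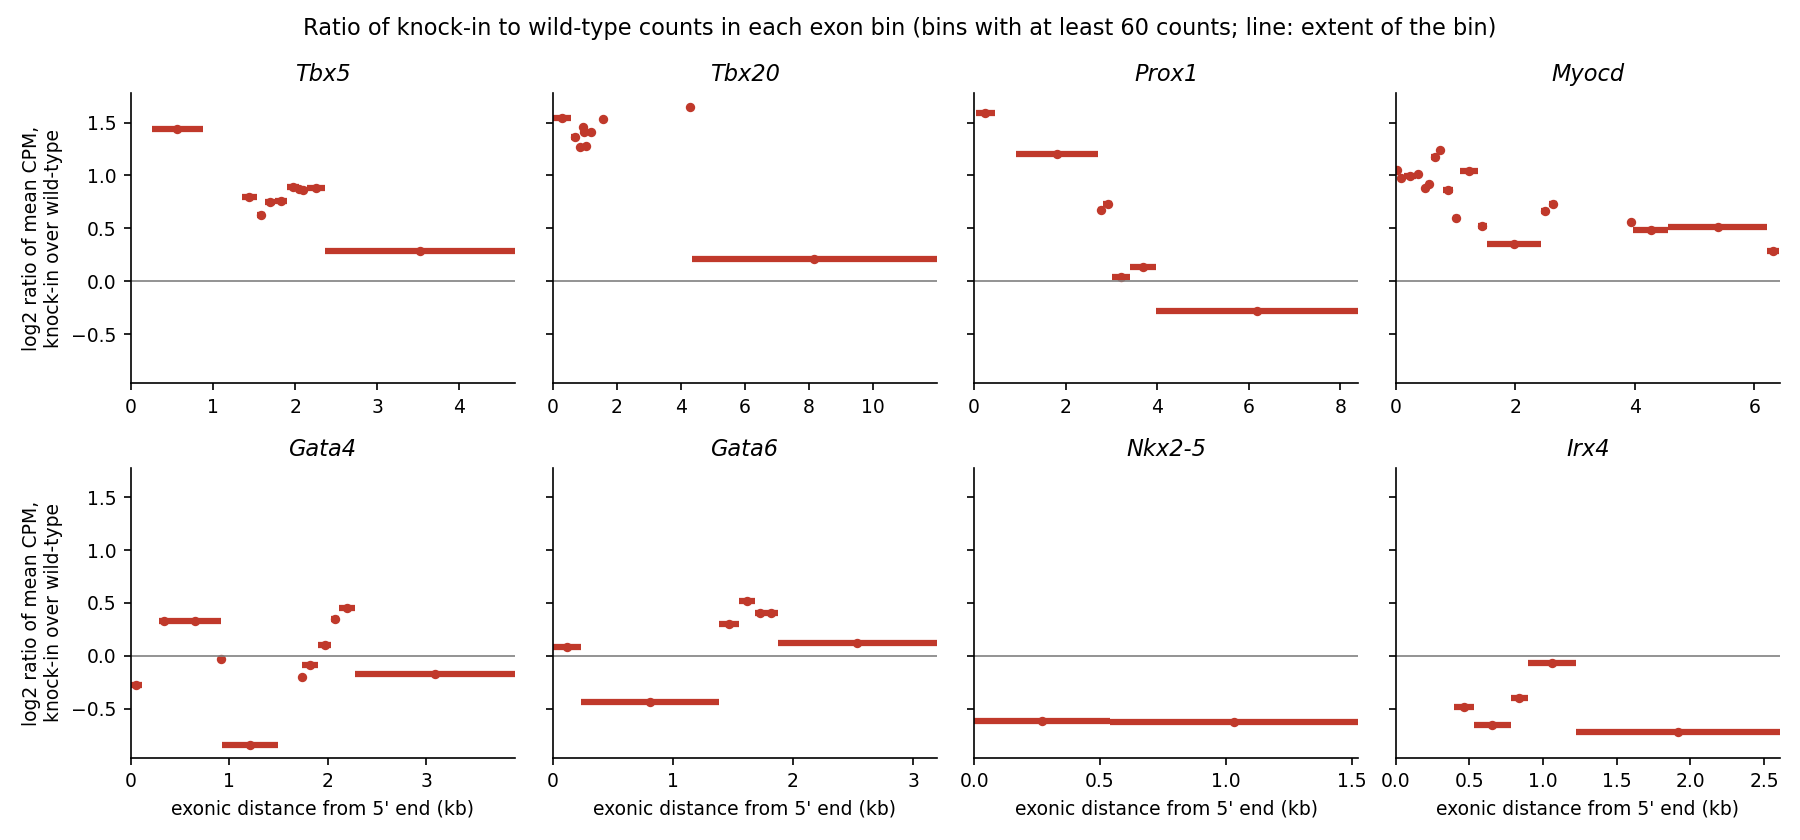
Log2 ratio of mean CPM, knock-in over wild-type, in each exon bin with at least 60 counts, against exonic distance from the 5′ end in kilobases for 8 factors; each line spans its bin and the dot marks the middle. Tbx20 and Prox1 are high up to the 3′ UTR, Tbx5 and Myocd stay above 0 throughout, and Gata4 and Gata6 have their lowest ratio in a GC-rich coding bin.

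Use of annotated alternative exons varied. An alternative last coding exon of Tbx20 gave 0 counts in its 374-base bin and 3 in its 82-base bin over all 6 hearts, and a 2160-base bin of a non-coding Tbx20 transcript gave 14. A 44-base bin of a non-coding Myocd transcript gave 0, 1 and 0 counts in knock-in hearts and 1, 1 and 2 in wild-type hearts, whereas the coding bin just ahead of it gave 22, 53 and 52 in knock-in and 17, 16 and 22 in wild-type hearts. A 243-base alternative 5′ UTR bin of Gata4 and a 237-base one of Tbx5 gave 0 counts in all hearts. Other alternative 5′ UTR bins were covered. A 109-base one of Gata4 had 14, 9 and 12 counts in knock-in hearts, against 7, 13 and 23 in wild-type hearts, and a 239-base one of Tbx5 had 14, 8 and 8 counts in knock-in hearts, against 2, 4 and 4 in wild-type hearts. A count of 0 leaves room for up to 3 counts per library, or 0.0882 to 0.0979 CPM.

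Across the whole table, calls went with gene length and GC content. Of the shortest of 5 equal groups of genes, 57 to 2223 exonic bases, 29 rose and 207 fell, and Nkx2-5, with 1525 bases, is one of that group. Of the longest group, 7290 bases and more, 387 rose and 50 fell, and Tbx20 and Prox1 belong there. Of the group richest in GC, which holds Gata4, Nkx2-5, Hand2, Irx4 and Srf, 74 rose and 201 fell. With offsets per library for length and GC content, Nkx2-5 had a log2 difference of 0.11 ± 0.13 (edgeR adjusted p = 0.617) and Irx4 one of -0.28 ± 0.15 (edgeR adjusted p = 0.246). Tbx20 and Prox1 had 0.30 ± 0.14 and -0.05 ± 0.26 with them (edgeR adjusted p = 0.163 and 0.919). The same offsets gave 0.74 ± 0.15 for Hand2 (edgeR adjusted p = 0.00701) and 0.42 ± 0.10 for Srf (edgeR adjusted p = 0.0172), both then past the threshold. Tbx5 and Myocd passed with the offsets as well, at 0.67 ± 0.14 (edgeR adjusted p = 0.00803) and 0.61 ± 0.13 (edgeR adjusted p = 0.00835), beside 13.9% of all genes called.

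**Figure D3:**
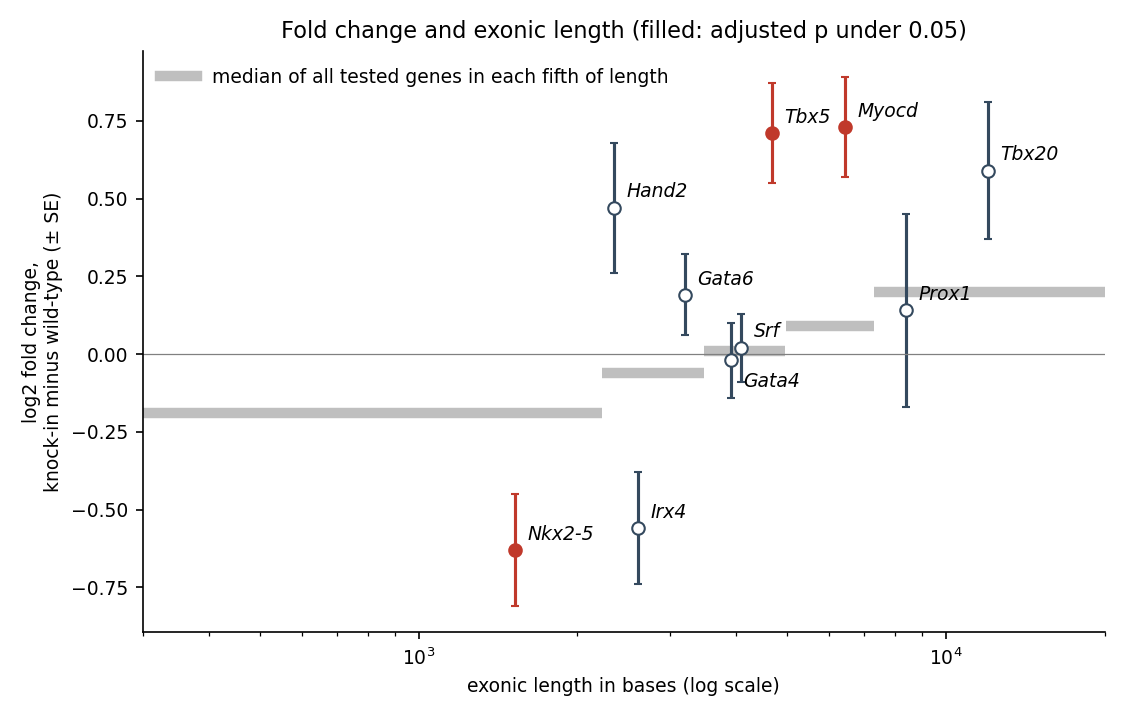
Log2 fold change, knock-in minus wild-type, with SE, against exonic length in bases on a log axis; grey bars are medians of all tested genes in 5 equal groups by length, from -0.19 in the shortest to 0.20 in the longest. Tbx5, Myocd and Hand2 lie above the bar of their length, and Nkx2-5 and Irx4 lie under it.

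**Figure D4:**
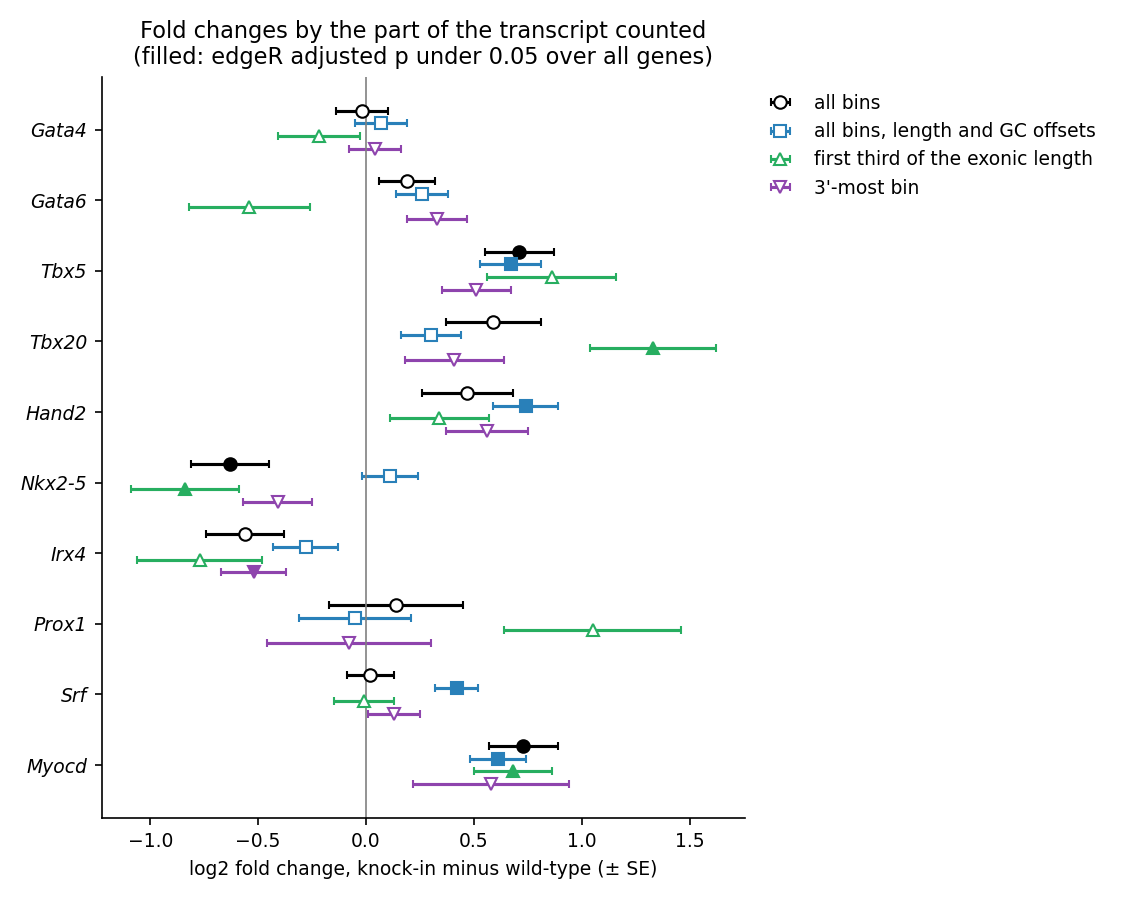
Log2 fold change with SE for each factor from 4 ways of counting. These are all exon bins, all bins with length and GC offsets, bins whose middle lies in the 5′ of 3 equal parts of the exonic length, and the 3′-most bin. Filled symbols have an adjusted p under 0.05. Tbx5 and Myocd are positive in all 4, Nkx2-5 is at 0.11 with offsets, and Tbx20 and Prox1 are highest over the 5′ part.

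Of 18 partners and cofactors of the 10 factors tested (20 listed), 6 rose, 0 fell and 12 did not pass, with a median log2 difference of 0.21. Over all genes 6.74% were called higher and 4.09% lower, and these shares are the background of the other lists as well. Mef2a, a MADS-box factor of muscle, had 138, 161 and 176 CPM in knock-in hearts, against 76.1, 91.5 and 108 CPM in wild-type hearts (log2 difference 0.78 ± 0.14; edgeR adjusted p = 0.00767). Tead1, which binds muscle promoters and is the DNA partner of Hippo coactivators, rose by 0.79 ± 0.17, and Smyd1, a muscle methyltransferase, by 0.46 ± 0.10 (edgeR adjusted p = 0.0167 and 0.0196). Zfpm2, the GATA cofactor also named Fog2, had 10.4, 9.98 and 11.4 CPM in knock-in hearts, against 5.14, 7.07 and 7.56 CPM in wild-type hearts (edgeR adjusted p = 0.0327). Ep300, a histone acetyltransferase that binds Gata4, rose by 0.83 ± 0.23 though its groups overlapped, and Mrtfb, a myocardin relative, by 0.52 ± 0.15 (edgeR adjusted p = 0.0369 and 0.045).

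The other partners stayed short of the threshold. Mef2c stood at 52.5 ± 10.7 CPM in knock-in and 35.5 ± 8.93 CPM in wild-type hearts (SD, n = 3 each; edgeR adjusted p = 0.0653). Mef2d, Hopx and Mrtfa had log2 differences of 0.26 ± 0.11, 0.16 ± 0.13 and -0.24 ± 0.20 (edgeR adjusted p = 0.157, 0.456 and 0.477). Over the 3′-most bin the differences of Mef2a, Mrtfb, Smyd1 and Ep300 were 0.10, 0.01, 0.18 and 0.49. None of these passed there (edgeR adjusted p = 0.77, 0.984, 0.402 and 0.11). Tead1 and Zfpm2 stayed past the threshold there, at 0.53 and 0.68 (edgeR adjusted p = 0.0369 and 0.0279). Among 17 other heart and family factors tested (28 listed), which include Tbx2, Tbx3, Irx1, Irx3 and Hey2, none passed edgeR's adjusted threshold. Of the listed ones, 5 (Nkx2-6, Hand1, Irx6, Isl1 and Mesp1) had 0 counts in all hearts.

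Cardiomyocyte genes known as targets of these factors divided. Of 27 tested (30 listed), 6 rose, 2 fell and 19 did not pass, with a median log2 difference of 0.07. Slc8a1, the sodium-calcium exchanger, had 158, 220 and 210 CPM in knock-in hearts, against 52.6, 76.0 and 107 CPM in wild-type hearts (log2 difference 1.32 ± 0.21; edgeR adjusted p = 0.00566). Corin, the protease that activates natriuretic peptides, rose by 0.99 ± 0.15, and the calcium channel gene Cacna1c by 0.87 ± 0.14 (edgeR adjusted p = 0.00537 and 0.00611). Over the 3′-most bin Cacna1c had 0.44 (edgeR adjusted p = 0.118), and Slc8a1 and Corin still passed at 1.11 and 0.58 (edgeR adjusted p = 0.00283 and 0.0219). Ankrd1, a stress-responsive ankyrin repeat gene, had 705, 563 and 585 CPM in knock-in hearts, against 859, 950 and 844 CPM in wild-type hearts (edgeR adjusted p = 0.0165). The other gene that fell, chosen after its values were seen, was Nppb, which encodes a natriuretic peptide, at 168, 92.2 and 94.4 CPM in knock-in hearts, against 226, 273 and 183 CPM in wild-type hearts (edgeR adjusted p = 0.0189). The sarcomere genes Myh6, Tnnt2, Myl2 and Actc1 did not pass. Myh6 came close, at 0.39 ± 0.12 without overlap between the groups (edgeR adjusted p = 0.0603), and passed in 7 of 20 alternatives. Its log2 difference was 1.01 over the 5′ part (edgeR adjusted p = 0.00774) and -0.40 over the 3′-most bin (edgeR adjusted p = 0.0944).

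Actin and contractile targets of Srf fell more often than they rose. Of 20 actin and contractile targets tested, 1 rose, 8 fell and 11 did not pass, with a median log2 difference of -0.63. Tpm2, a tropomyosin, fell by 1.04 ± 0.17, Tagln, the smooth muscle protein transgelin, by 0.82 ± 0.14, and Myl9, a regulatory myosin light chain, by 0.83 ± 0.17, all as log2 differences (edgeR adjusted p = 0.00611, 0.00704 and 0.0146). Actb had 204, 227 and 204 CPM in knock-in hearts, against 384, 329 and 283 CPM in wild-type hearts (edgeR adjusted p = 0.00956), and Actg1 fell by 0.61 ± 0.12 (edgeR adjusted p = 0.0117). The gene that rose, named after its value was seen, was Vcl, which encodes vinculin, at 0.54 ± 0.15 (edgeR adjusted p = 0.0341). The cardiac actin Actc1 had a log2 difference of 0.02 (edgeR adjusted p = 0.905). Over the 3′-most bin the median of the list was -0.37. Tagln and Actb passed there, at -0.84 and -0.81 (edgeR adjusted p = 0.0272 and 0.0113). Tpm2, Myl9, Actg1 and Vcl did not, at -0.80, -0.71, -0.34 and 0.26 (edgeR adjusted p = 0.11, 0.0896, 0.188 and 0.244).

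Of 8 immediate early Srf targets tested (10 listed), 6 fell, 0 rose and 2 did not pass, with a median log2 difference of -1.62. Fos had 0.783, 1.06 and 0.794 CPM in knock-in hearts, against 19.97, 19.5 and 4.41 CPM in wild-type hearts (log2 difference -4.05 ± 0.54; edgeR adjusted p = 0.00547). Wild-type replicate 3 had the lowest wild-type value for each of the genes named here. Ier2, Junb and Fosb fell by 1.79 ± 0.32, 1.46 ± 0.29 and 3.66 ± 0.75 in log2 units (edgeR adjusted p = 0.00787, 0.012 and 0.013). Ccn1, a matrix protein gene, had 24.7, 27.1 and 24.4 CPM in knock-in hearts, against 48.9, 50.3 and 37.9 CPM in wild-type hearts (edgeR adjusted p = 0.00566). With the length and GC offsets, all 5 of these passed again, and the median of the 8 was -1.17. Over the 3′-most bin Ier2 and Ccn1 passed, at -1.56 and -0.68 (edgeR adjusted p = 0.035 and 0.00659). Fos did not, at -3.72 (edgeR adjusted p = 0.0883), and Junb and Fosb were not tested there. With 1 heart left out, the largest edgeR adjusted p was 0.0675, 0.0709 and 0.0705 for Fos, Fosb and Junb. It was 0.0499 and 0.0404 for Ier2 and Ccn1. These lists were drawn up with results of these hearts known, so their counts are a description.

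**Figure D5:**
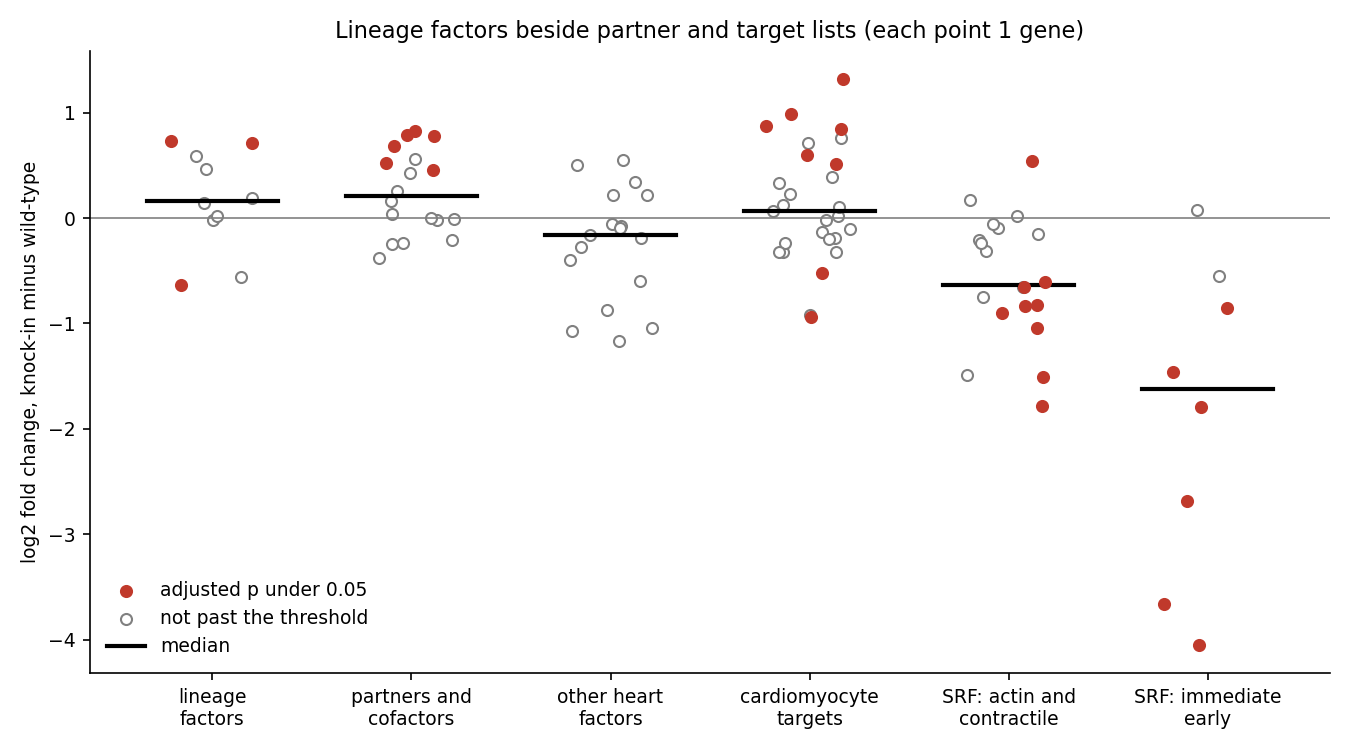
Log2 fold change, knock-in minus wild-type, of each tested gene in the 10 lineage factors and in 5 related lists; red points have an adjusted p under 0.05 over all genes and black bars are medians. Lineage factors lie between -0.63 and 0.73, partners have a median of 0.21, and both Srf target lists lie mostly under 0, with medians of -0.63 and -1.62.

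Markers of other cell types were counted beside these lists, with 10.8% of all genes called as background. Of 8 smooth muscle and pericyte markers 3 fell (Acta2, Tagln and Cnn1, all also in the Srf actin list) and none rose, and the list summed to 279 to 499 CPM in knock-in and 499 to 540 CPM in wild-type hearts; none was at 0. Of 8 blood endothelial markers 2 fell, summing to 633 to 910 CPM in knock-in and 881 to 1205 CPM in wild-type hearts. Of 6 epicardial markers 2 were tested, of which Wt1 fell and Tbx18 had a log2 difference of 0.50 that did not pass, the list summing to 2.84 to 4.56 CPM in knock-in and 5.34 to 7.74 CPM in wild-type hearts. Upk3b, Upk1b and Msln were at 0 in all 3 knock-in hearts and at 0 to 1.16 CPM in wild-type hearts. Of 6 macrophage markers 1 fell (Lyz2), and the list summed to 155 to 159 CPM in knock-in and 193 to 216 CPM in wild-type hearts, without overlap. Of 6 blood markers the platelet genes Ppbp, Itga2b and Pf4 fell, at log2 differences of -1.58, -1.36 and -0.74, and the globin gene Hbb-bs rose, at 0.74 (edgeR adjusted p = 0.0164, 0.0165, 0.0205 and 0.03). The blood list summed to 667 to 1256 CPM in knock-in and 532 to 713 CPM in wild-type hearts. For Prox1, of 6 lymphatic markers none passed, with sums of 28.6 to 45.1 CPM in knock-in and 34.4 to 36.8 CPM in wild-type hearts, and Ccl21a was at 0 in all. For Gata4, Gata6, Hand2 and Tbx20, which fibroblasts or endocardium can also express, 1 of 8 fibroblast markers fell (Col3a1) and none of 5 endocardial markers passed. For Tbx5 and Irx4, which differ between atria and ventricles, none of the 4 tested atrial markers of 7 listed passed, with sums of 58.0 to 99.0 CPM in knock-in and 93.0 to 197 CPM in wild-type hearts, nearly all of it Nppa. None of the 5 conduction system and 2 neural markers tested passed edgeR's adjusted threshold. The part of these cells in the differences of the factors and of the Srf targets was not tested.

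None of the tested transcripts next to the factors passed the threshold in edgeR's test. Hand2os1, transcribed from the opposite strand, had 46.7, 31.3 and 41.2 CPM in knock-in hearts, against 38.5, 38.8 and 41.5 CPM in wild-type hearts (log2 difference 0.01 ± 0.14; edgeR adjusted p = 0.986). In GENCODE M21 it spans chr8:57281117-57324233 and overlaps Hand2, but its bins in the deposited counts end at chr8:57320859. None of those bins overlaps a Hand2 exon, but those at chr8:57320689-57320859 reach into the Hand2 promoter sequence given above. Counts kept the strands apart: 37 bins that sit within a covered bin of the opposite strand held a median 0.00156 of its coverage. Gm43050 beside Tbx5, 1010001N08Rik beside Gata6, Prox1os beside Prox1 and Cul9 beside Srf had log2 differences of -0.33, -0.14, -0.17 and 0.06, none past the threshold (edgeR adjusted p = 0.523, 0.697, 0.823 and 0.81). Gm29824 near Tbx20, Gm28172 at Prox1 and Mir6976 within Srf had at most 7 counts in any heart, and Gm26904, which spans Srf, had 0.

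Over the 6 hearts, each of the 6 factors with an unadjusted p under 0.05 (27.7% of all tested genes had one) had genes of nearly the same pattern among 8376 with at least 5 CPM. By Pearson r of log2 CPM (n = 6 hearts, points that share library and coverage), those most like Myocd were Phtf2, Chrm2 and Pum2, each at 0.999, and those most like Tbx20 were Slk, Atp11b and Nckap1, at 0.999, 0.997 and 0.997. Those most like Tbx5 were Wbp1l, Slc44a2 and Mapre2, at 0.994, 0.994 and 0.990. Nkx2-5 was most like Tmem120a, Rangrf and Aprt, at 0.995, 0.995 and 0.994. Irx4 was most like St3gal5, Dnajc17 and Mterf3, at 0.990, 0.988 and 0.986, and Hand2 was most like Apex1, Snx17 and Tmem9, at 0.993, 0.992 and 0.987. With so many candidates and so few hearts, values this high describe the pattern and are given with no test.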

How the data were processed

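The authors' deposited table holds whole-number counts of reads per exon bin, not normalized. Per the submitters' processing notes the tools were STAR, featureCounts, Subread 1.5.2 and DESeq2 with GRCm38.p6, roles and settings not given in the sources used here. Reads spanning bins were counted in each, so bins summed per gene are not reads. Names and exons came from GENCODE M21. All p-values rest on 3 hearts per group, numbered in accession order. The edgeR tests set the group difference against a spread among hearts that is moderated over all genes.

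Genes kept by filterByExpr were TMM-scaled and tested with edgeR 4.0.16 (glmQLFit, robust, R 4.3.3), Benjamini-Hochberg threshold 0.05. SE is the log2 difference over the square root of F. On simulated counts of 12908 genes, 27 of 99 genes changed 1.5-fold and 73 of 97 changed 2-fold were recovered, with 6.54% false calls. The simulation held no shift with length, GC content or coverage, and gave 107 calls against 1415 in the data. Neither its recovery nor its share of false calls carries over directly to these hearts. Coverage ratios add 10 counts to each part, over genes with 4000 or more exonic bases, 10 or more bins and 6000 or more counts. Bins were placed whole by their middle, in these parts and in the last 1000 exonic bases. Offsets are per-library splines (5 degrees of freedom). Alternatives were other scalings, filters, bins and tests (limma 3.58.1, DESeq2 1.42.0) and each heart left out; the 5′ of 3 equal parts and the 3′-most bin were added after seeing the data. Members and lists were chosen with earlier results of these data known. Named genes are the 10 factors, up to 5 called genes by smallest p per related list, a fixed set of partners, Txnip, genes within 5000 bases, and the 3 most alike genes; a gene that this rule names is not reported here.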

Additional observations from a re-analysis of the deposited data

How the results depend on the processing

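Over all genes, 1415 were called, against 612 with the highest bin of each gene, 277 with the last 1000 exonic bases, 519 with the 3′-most bin, 245 at an adjusted p under 0.01, and 164 to 2461 when 1 heart was left out (164 without knock-in replicate 2, 2461 without wild-type replicate 3). Of the 10 factors 3 were called, against 5 in DESeq2 (Tbx20 and Irx4 added), 1 with the highest bin (Irx4), 0 with the last 1000 bases, 1 with the 3′-most bin (Irx4), and 0 to 5 with 1 heart left out. Of the related lists 29 genes were called, against 11, 9 and 13 with the highest bin, last 1000 bases and 3′-most bin, and 11 to 38 with 1 heart left out. Signs turned as follows on the log2 scale: Gata4 to 0.04 (3′-most bin), 0.06 (last 1000 bases), 0.07 (offsets) and, with 1 heart left out, -0.10 to 0.09 (0.09 without wild-type replicate 3); Gata6 to -0.54 (5′ part); Nkx2-5 to 0.11 (offsets); Prox1 to -0.08 (3′-most bin), -0.15 (highest bin), -0.05 (offsets) and, with 1 heart left out, -0.13 to 0.63; Srf to -0.01 (5′ part, mean CPM of at least 1) and -0.05 (library totals, upper quartile), with -0.04 to 0.07 when 1 heart was left out. Tbx5, Tbx20, Hand2, Irx4 and Myocd kept their sign in the 19 or 20 alternatives run for each. The causes were not tested. No bin of Tbx5, Tbx20, Prox1 or Srf had its middle in the last 1000 bases, because their last bins are long, so these genes were not tested there. Bins with their middle there were counted whole, such as the 1628-base last bin of Gata4. No paired analysis was possible because the labels give no replicate numbers shared between the groups. At this depth and n, 1.5-fold changes were mostly missed in the simulation, whose recovery does not carry over directly to these hearts. Factors not past the threshold are not shown to be unchanged.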
